A study of Mus musculus with 24 samples.

Results

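The comparison described here is that of indole-3-acetic acid (IAA) with its solvent control DMSO in the FreeTir1 line, a mouse E14 embryonic stem cell line labelled as the control line, in which the auxin receptor TIR1 was free, that is, not attached to the ribosome. Its 12 libraries, of 24 in the study, were taken as those whose titles name FreeTir1, and its values are the fold changes, average expression and p-values that the authors' deposited table gives for that line over all 13504 genes. The study sequenced polyadenylated RNA from polysome fractions of 2 lines, both with RACK1 fused to an auxin-inducible degron (RACK1-AID). In the other line, Rps26Tir1, TIR1 was fused to RPS26, a protein of the small ribosomal subunit. In the FreeTir1 line the 6 groups were IAA or DMSO for 12 h, each in the free mRNA fraction, the low translation fraction and the heavy translation fraction, with 2 libraries per group. The degron allele and the free TIR1 were thus present in the IAA group and in the DMSO group, and a group with TIR1 and no tagged protein is not part of the design used here. Whether the line is a clone, what drives TIR1, and whether the replicates were separate cultures is not given in the sources used here. The p-values therefore reflect the spread among sequenced libraries only. Whether libraries of the other line entered that spread is not given either.

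The auxin degron is borrowed from plants: auxin holds a tagged protein against TIR1, an F-box protein that docks on the cell's own SCF ubiquitin ligase, and the tagged protein is then sent to the proteasome. RACK1 is a WD-repeat protein that sits on the head of the small ribosomal subunit near the mRNA exit, where it serves as a docking site for kinases and takes part in the response to collided ribosomes. Polysome profiling separates mRNAs by the number of ribosomes they carry, so that the heavy fractions hold the most heavily loaded mRNAs and the free fraction those without ribosomes. In naive mouse embryonic stem cells a network of pluripotency factors holds the cells in self-renewal, and mRNAs of the lysosome, the ribosome and chromatin regulators differ widely in length and in the cellular site of their translation.

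For each gene the authors' deposited table gives 4 FreeTir1 columns (log fold change, mean expression level, p-value, p-value after adjustment), and no value per library was used here. The read depth behind each gene is therefore unknown, and no level per fraction or per replicate can be given. The table does not state the base of the logarithm, the numerator of the fold change or how the 3 fractions entered it. Values are read here as log2 and as IAA over DMSO, a positive value then meaning more with IAA. An altered amount of an mRNA, an altered ribosome loading and, in these bulk samples, fewer cells of a kind as against less RNA per cell cannot be told apart by these values. Standard errors and 95% intervals below were worked back from the deposited p-values with 29 degrees of freedom.

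The labelled cell type was checked against marker genes in the average expression column of the authors' deposited table, which is identical for both lines. All 8 embryonic stem cell markers (Pou5f1, Nanog, Sox2, Esrrb, Zfp42, Klf4, Dppa5a and Tdgf1) were present, at an average expression of 8.33 to 10.8. Of 7 fibroblast feeder markers 3 were in the table, at 0.15 to 3.53, and each of the 6 primitive endoderm markers lay below 3. Of the neural markers 4 of 5 were present at no more than 1.79, and of the mesendoderm markers 4 of 5 at no more than 2.74. The longer marker lists used for the gene classes below held some better expressed genes. An average expression of at least 3 was reached by 7 of 19 primitive endoderm genes and 3 of 10 mesendoderm genes. For neural genes it was 2 of 9 and for feeder genes 3 of 9. None of these markers passed adjusted p of 0.05 in the FreeTir1 line. For Rack1 itself (chromosome 11, 48800332 to 48806434, GRCm38) the log fold change in the authors' deposited table was 0.19, with a standard error of 0.131. A degron acts on the protein, so this mRNA value does not test the depletion.

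No gene of the FreeTir1 line passed adjusted p of 0.05 in the authors' deposited table: the count was 0 of 13504 (0%), with a smallest adjusted p of 0.0778. The fold changes were small. Among the 8633 genes with an average expression of at least 3, 0 had a log2 fold change beyond 1 in either direction and 13 lay beyond 0.5, against a median standard error of 0.116. The median over all genes was -0.00, and 48.6% of genes were positive. At an unadjusted p under 0.05 there were 367 positive genes (2.72%) and 537 negative genes (3.98%). The genes named below are therefore the leading ones of a comparison without a call, and their values are given as leanings.

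Fold changes of weakly expressed genes lay lower and were less precise. Below an average expression of 0 the median log2 fold change was -0.14 over 1384 genes, with 95 negative and 33 positive genes at an unadjusted p under 0.05 and a median standard error of 0.462. From 0 to 1 the median was -0.06 over 929 genes and from 1 to 3 it was -0.01 over 2558 genes. At 3 and above the median was 0.00, and 210 positive genes (2.43%) stood beside 245 negative genes (2.84%). From 5 to 7, where the median was 0.00 over 3382 genes, there were 96 negative (2.84%) and 59 positive genes (1.74%) at that p. Among the 753 genes at 7 and above the median was 0.01, with 12 positive and 5 negative genes at an unadjusted p under 0.05.

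**Figure D1:**
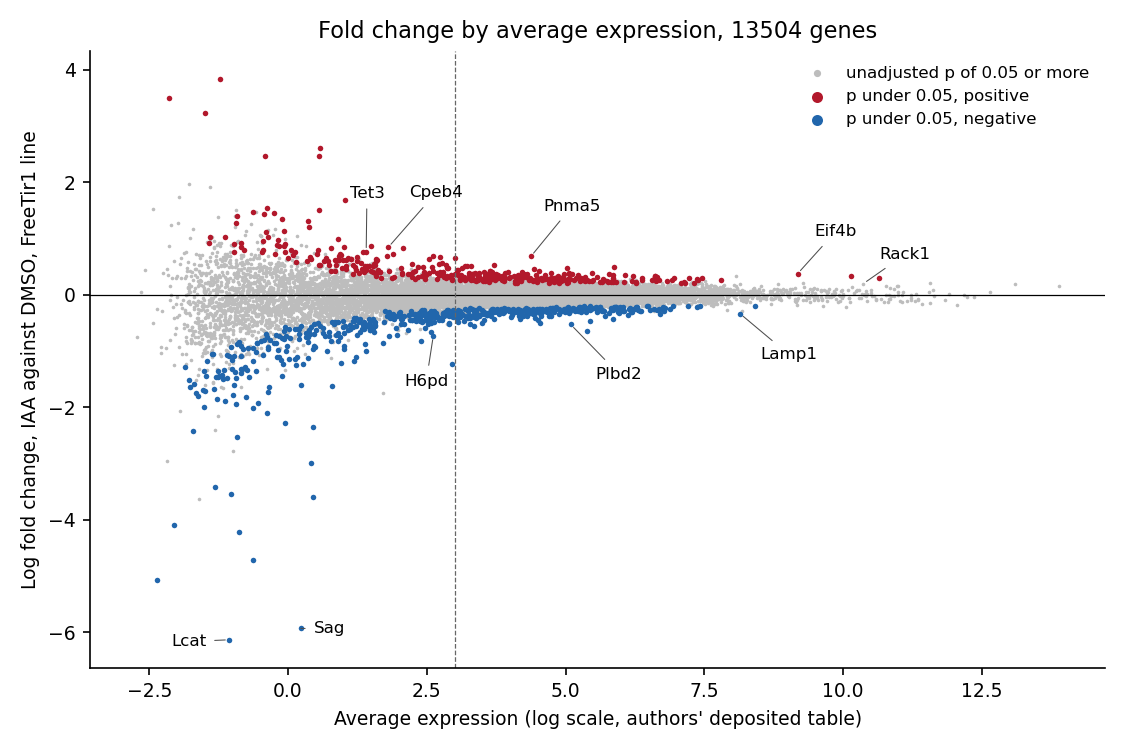
Log fold change of IAA against DMSO in the FreeTir1 line (vertical axis) by average expression (horizontal axis, log scale), both from the authors' deposited table, with 1 point per gene. Genes at an unadjusted p under 0.05 are coloured, 367 positive in red and 537 negative in blue. The dashed line marks an average expression of 3, to the right of which no gene lies beyond 1 in either direction.

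The genes of smallest p were mostly weakly expressed. Sag, which encodes visual arrestin, had a log fold change of -5.93 (adjusted p = 0.0778) and an average expression of 0.23 by the authors' deposited table. Lcat, the plasma enzyme that esterifies cholesterol, had -6.13 at an average expression of -1.06 in the authors' deposited table, with the same adjusted p, and stood at 2.71 in the other line. At the looser threshold of 0.2 for the adjusted p there were 7 genes in the authors' deposited table, and the other 5 were H6pd, Pnma5, Tet3, Cpeb4 and Plbd2. H6pd, an endoplasmic reticulum enzyme of the pentose phosphate pathway, stood at -0.73 (adjusted p = 0.136) by the authors' deposited table. The methylcytosine dioxygenase gene Tet3 stood at 0.77, and Cpeb4, a regulator of cytoplasmic polyadenylation, at 0.84 in the authors' deposited table, each with adjusted p = 0.185. Of the 7 genes, Pnma5 and Plbd2 alone had an average expression of at least 3. Lcat, H6pd and Cpeb4 were named after their values were seen.

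On the positive side, among genes with an average expression of at least 3, Pnma5 led. This paraneoplastic antigen family gene, derived from a retrotransposon Gag gene (chromosome X, 73033981 to 73037103), stood at 0.68 (95% interval 0.38 to 0.98, adjusted p = 0.185) by the authors' deposited table. Of its 31-base stretches 33.1% also occur in transcripts of other genes. Amer1, a scaffold of the complex that degrades beta-catenin, stood at 0.51 and Amotl2, a junction protein that binds YAP, at 0.48 in the authors' deposited table. Ppp1r10, which guides a nuclear phosphatase to its substrates, had 0.50 with a standard error of 0.147 in the authors' deposited table. Enzymes of lipid metabolism followed in the authors' deposited table, with the acyl-CoA synthetase gene Acsl4 at 0.47 and the choline kinase gene Chka at 0.38. The remaining genes of smallest p in the authors' deposited table were Fastkd1, a mitochondrial RNA-binding protein gene, at 0.40, Zbtb37, a zinc finger gene, at 0.39, Rnd3, an atypical small GTPase gene, at 0.38, Fbxo30, an F-box gene, at 0.38, Zmym2, a zinc finger gene, at 0.37 and Bahcc1, a BAH domain chromatin gene, at 0.36. By size alone, the Notch ligand gene Jag1 at 0.52, the adhesion protein gene Kank4 at 0.51 and the ETS factor gene Elk4 at 0.51 joined them in the authors' deposited table. All 12 genes of smallest p had adjusted p between 0.185 and 0.386 and standard errors between 0.102 and 0.148.

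On the negative side Plbd2, which encodes a lysosomal protein resembling phospholipase B (chromosome 5, 120483282 to 120503625), stood at -0.53 (95% interval -0.77 to -0.29, adjusted p = 0.185) by the authors' deposited table. Lamp1, the abundant glycoprotein of the lysosomal membrane (chromosome 8, 13159161 to 13175338), stood at -0.33 with a standard error of 0.0991 in the authors' deposited table. Several other leading genes also encode proteins made at the endoplasmic reticulum. The lipoprotein receptor gene Lsr stood at -0.44, the neurotrophin receptor gene Ngfr at -0.39 and the endoplasmic reticulum membrane gene Erlin1 at -0.37 in the authors' deposited table. The membrane protein genes Tapt1 and Clptm1 stood at -0.43 and -0.42 in the authors' deposited table. Of nuclear proteins, the histone chaperone gene Chaf1b stood at -0.46 and Mta3, a subunit of the NuRD complex, at -0.36 in the authors' deposited table. The zinc finger gene Nfxl1 stood at -0.45 in the authors' deposited table. Sh3bp1, a GTPase-activating protein gene, had -0.50 in the authors' deposited table, with 66.7% of its stretches shared with other genes. Ybx2, a germ cell mRNA-binding protein gene, stood at -0.56 in the authors' deposited table. By size alone Galnt2 at -0.65, Tprn at -0.52 and Stat5b at -0.51 joined them in the authors' deposited table. The value of Galnt2, a glycosyltransferase gene, is uncertain, since 93.7% of its stretches are shared and its p was 0.0226. The remaining gene beyond 0.5 in the authors' deposited table was an unnamed gene model, at 0.65, with 98.1% shared stretches.

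**Figure D2:**
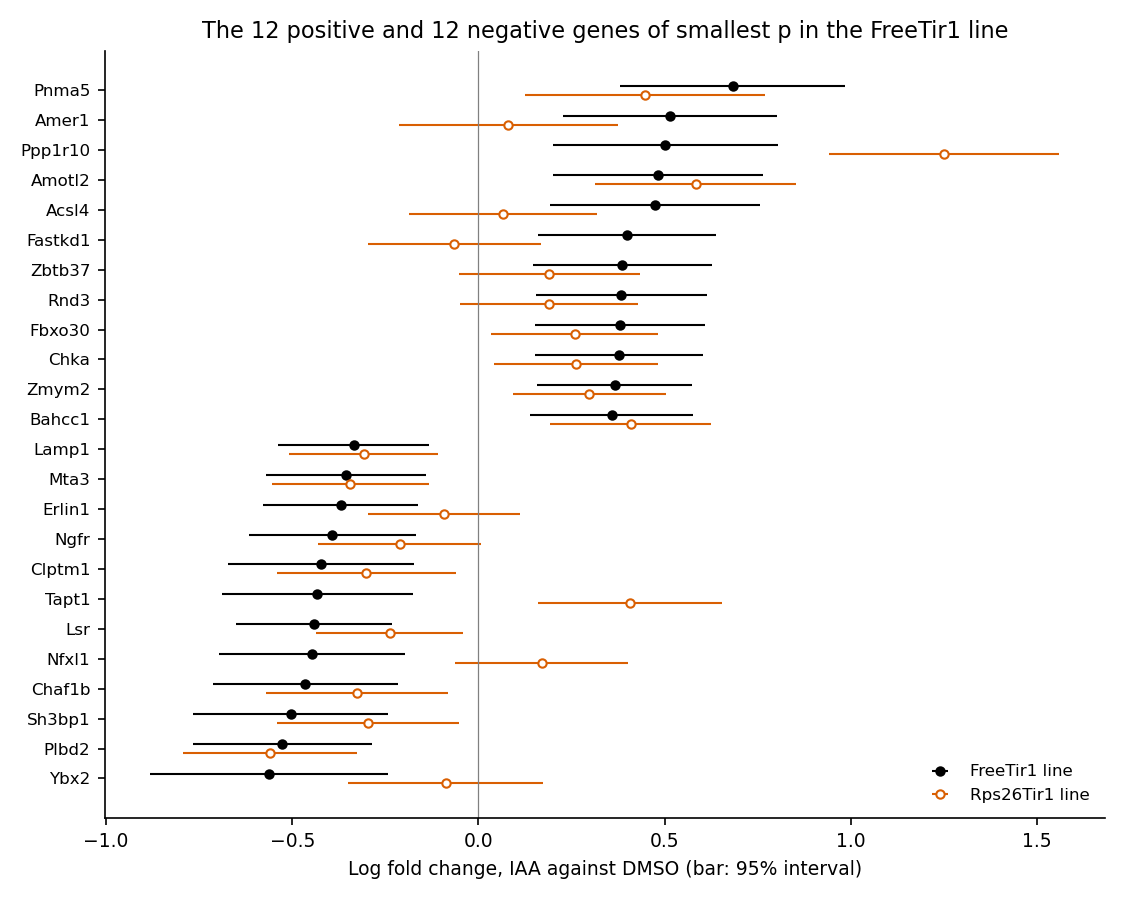
Log fold change of IAA against DMSO with 95% intervals for the 12 positive and 12 negative genes of smallest p in the FreeTir1 line, among genes with an average expression of at least 3. Filled points are the FreeTir1 line, whose p-values chose the genes, and open points the Rps26Tir1 line. In the open points 11 of the 12 positive and 10 of the 12 negative genes lie on the same side of 0.

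The fold changes and p-values of the Rps26Tir1 line were not used to choose these genes, and its libraries are separate, controls included. The average expression behind the filter is, however, identical for both lines. Median standard errors at an average expression of at least 3 were 0.116 in the FreeTir1 line and 0.115 in the other. Whether the error of a gene was estimated from both lines together is not given, so small p-values in both may not be independent. Of the 12 leading positive genes 11 were positive there and 7 had an unadjusted p under 0.05 with that sign, and of the 12 leading negative genes the numbers were 10 and 7. Over all 455 genes of the FreeTir1 list at an average expression of at least 3, 409 (89.9%) had the same sign in the other line, against 66.7% of the 8633 genes. The 192 genes at an unadjusted p under 0.05 in both lines made up 42.2% of the FreeTir1 list and 15.5% of the list of 1239 genes of the other line, and 189 of them had the same sign. With weakly expressed genes included, 306 genes reached that p in both lines (33.8% of the FreeTir1 list and 13.9% of the other), 41 of them with opposite signs. Of all 904 FreeTir1 genes at that p 75.2% had the same sign in the other line, against 62.2% of all genes. The 3 with opposite signs at an average expression of at least 3, named after their values were seen, were Arv1, Idnk and Tapt1. By the authors' deposited table, Tapt1 stood at -0.43 in the FreeTir1 line and 0.41 in the other, a difference (Rps26Tir1 minus FreeTir1) of 0.84, standard error 0.174. In this test, which compares the fold changes of the lines with their worked-back errors and Benjamini-Hochberg adjustment, none of the 24 leading genes passed 0.05. Ppp1r10 stood at 1.25 for Rps26Tir1 by the authors' deposited table, a difference of 0.75, standard error 0.211.

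Gene classes were then read as counts. Of 57 lists, 56 had at least 8 measured members; 33 of these had a positive median and 23 a negative one. In 43 of the 56 the median lay within 0.05 of 0, and in 53 it was smaller in size than the median standard error of the members. That error belongs to the fold change of a single gene and does not give the precision of a class median. The sign of the median was that of the other line for 41 of 56. No member of any list passed adjusted p of 0.05. Counts of members at an unadjusted p under 0.05 stand beside 2.72% positive and 3.98% negative over all genes. Some genes belong to several lists, and the lists were chosen with earlier results of these data known.

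**Figure D3:**
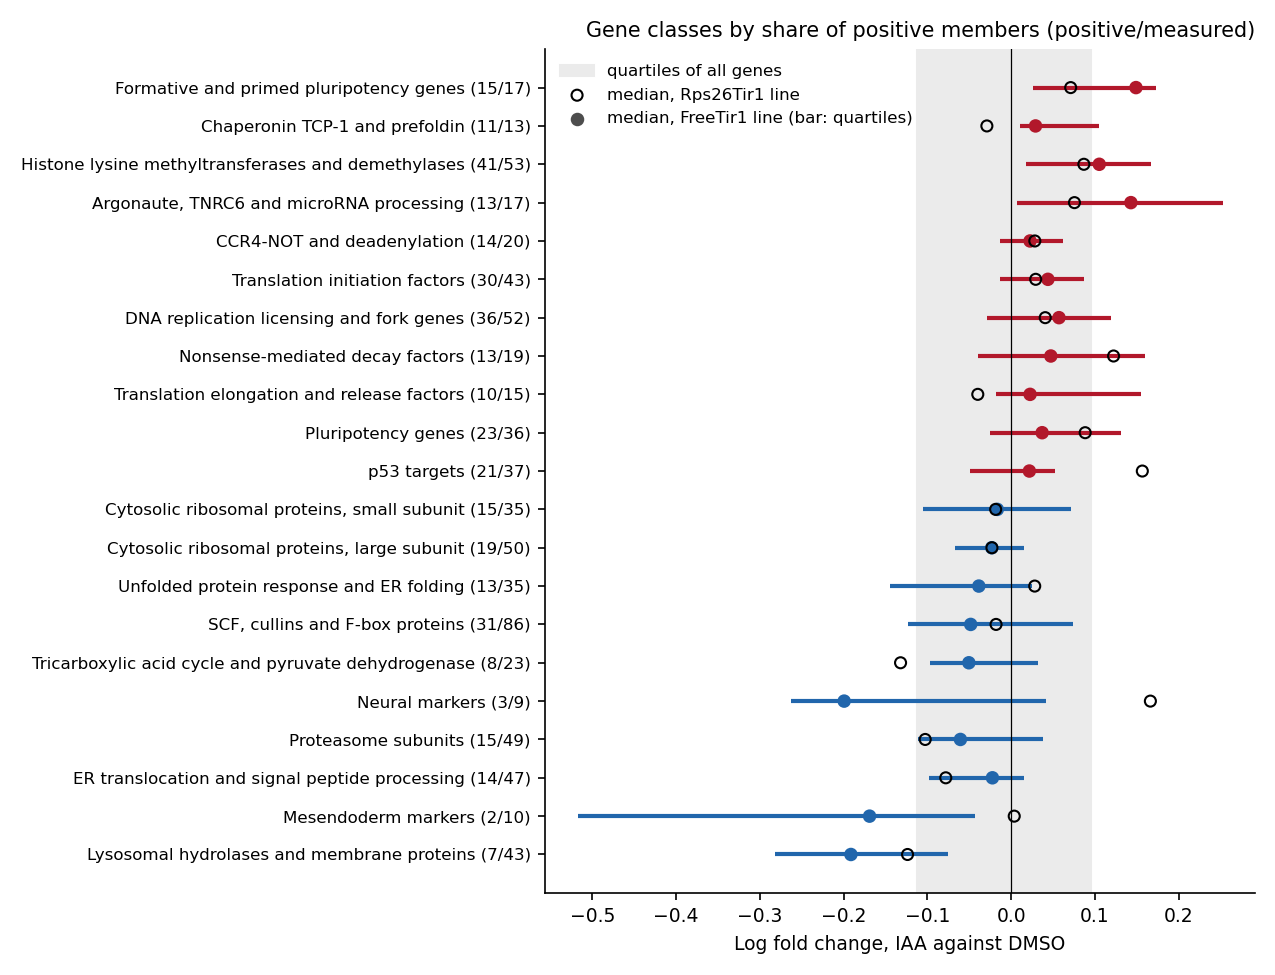
Median log fold change of IAA against DMSO (filled points) with quartiles (bars) for the 21 classes described, ordered by the share of positive members, whose numbers stand beside each name as positive of measured. Open points are medians in the Rps26Tir1 line and the grey band spans the quartiles of all genes, -0.11 to 0.09. The lysosomal list has the lowest share of positive members, 7 of 43, and its upper quartile lies below 0.

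Lysosomal genes had the lowest share of positive members of the 56 lists. The lysosome breaks down proteins, glycans and lipids with acid hydrolases that are made at the endoplasmic reticulum, and its membrane carries heavily glycosylated proteins, channels and transporters. Of 43 lysosomal genes 36 were negative, with a median of -0.19 and quartiles of -0.28 and -0.07, where all genes had a median of -0.00. At an unadjusted p under 0.05 there were 13 negative and 0 positive members, that is 30.2% of the list on the negative side, where 3.98% of all genes stood. Their values ran from -0.87 for Arsb, at an average expression of -1.32 and with a standard error of 0.595, to 0.18 for Idua. Among the 35 members with an average expression of at least 3, 30 were negative and 11 of these had an unadjusted p under 0.05. With the trend of the fold change in transcript length, GC content and expression removed the median was -0.17.

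The list was split by what the products do, after the values were seen. All 8 lysosomal proteases were negative. The tripeptidyl peptidase gene Tpp1 stood at -0.42 with a standard error of 0.137, and the cathepsin genes Ctsb, Ctsz and Ctsl at -0.28, -0.28 and -0.23 by the authors' deposited table. The other 4 proteases lay between -0.28 for Ctsh and -0.15 for Ctsd in the authors' deposited table. Of 8 genes of lipid degradation 7 were negative, with a median of -0.20. Lipa, the acid lipase that releases cholesterol and fatty acids, stood at -0.66 (standard error 0.152, adjusted p = 0.212) by the authors' deposited table, the palmitoyl-protein thioesterase gene Ppt1 at -0.31 and the sphingomyelinase gene Smpd1 at -0.26. Npc2, which carries cholesterol within the lysosome, stood at 0.00 and Psap, the precursor of saposins, at -0.02 in the authors' deposited table.

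Of 6 membrane proteins 5 were negative, led by the cation channel gene Mcoln1 at -0.35 and by Lamp1, with Lamp2 at -0.12 and the cholesterol transporter gene Npc1 at 0.17 in the authors' deposited table. Glycan-degrading enzymes were the most mixed, where 13 of 18 were negative (median -0.10). The hexosaminidase subunit gene Hexa stood at -0.30 and Naglu, a heparan sulfate enzyme gene, at -0.61 with a standard error of 0.291 in the authors' deposited table, while Fuca1, Manba, Galns, Gaa and Idua lay between 0.01 and 0.18. The 3 other lumenal proteins were all negative, with the progranulin gene Grn at -0.27 beside Plbd2 in the authors' deposited table. In the Rps26Tir1 line 33 of the 43 were negative with a median of -0.12, and 32 of 43 had the same sign in each line. After adjustment the difference between the lines passed 0.05 for 0 of 43 members, and 5 had an unadjusted p under 0.05.

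**Figure D4:**
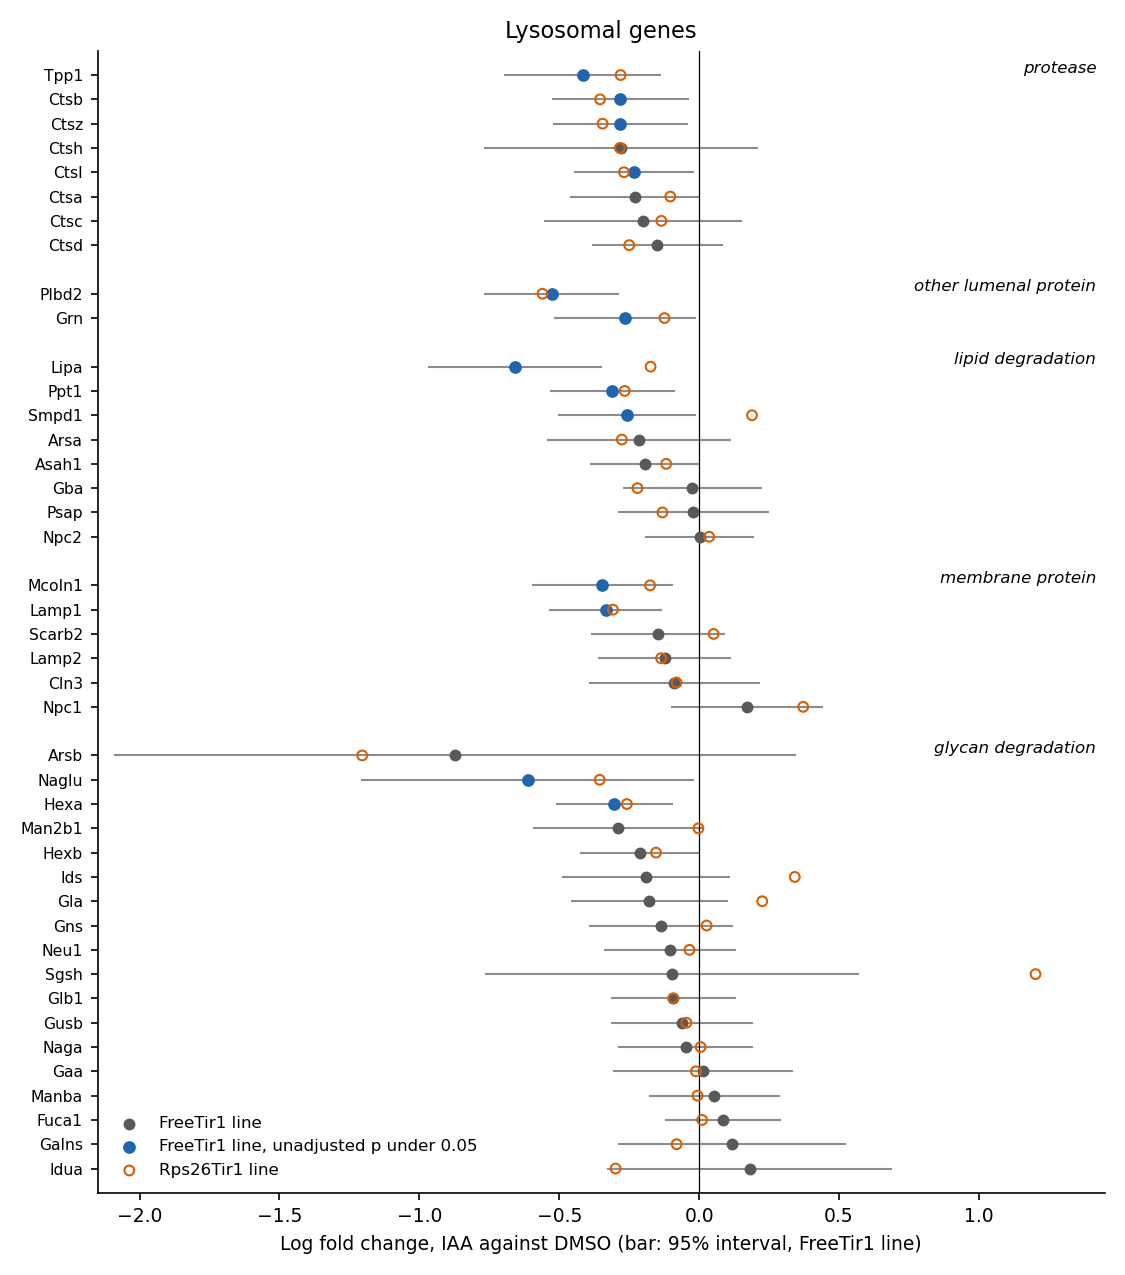
Log fold change of IAA against DMSO for lysosomal genes, all but 1 of the list, grouped by what their products do, with 95% intervals for the FreeTir1 line (filled points). Blue points mark the 13 members at an unadjusted p under 0.05, all of them negative, and open points give the Rps26Tir1 line. All 8 proteases lie below 0 in each line.

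Many lysosomal genes carry in their promoters an E-box that the factor TFEB is known to bind, and the letters TCACGTGA were looked for in promoters from RefSeq (GRCm38.p6, 250 bases before to 50 after the start). This motif is its own reverse complement. Of the 43 genes 32 had a promoter in that table. All 8 letters occurred in 5 of the 32 (Cln3, Ctsa, Ctsd, Gla and Mcoln1), or 15.6%, against 2.07% of the 10635 genes of the fold change table with a promoter. The first 7 letters, TCACGTG, on either strand, which include every full match, occurred in 11 of 32 (34.4%) against 6.92%. Within the lysosomal list the 11 genes with these letters had a median of -0.18 with 10 negative, and the 21 without them a median of -0.20 with 17 negative. Over all genes with a promoter the medians with and without the letters were both -0.00. The 3 promoters printed are those of members at an unadjusted p under 0.05 that hold such a match, which is in capitals: Mcoln1 (chr8:3500269-3500568, plus strand), Lamp1 (chr8:13158911-13159210, plus strand) and Naglu (chr11:101069844-101070143, plus strand).
Mcoln1: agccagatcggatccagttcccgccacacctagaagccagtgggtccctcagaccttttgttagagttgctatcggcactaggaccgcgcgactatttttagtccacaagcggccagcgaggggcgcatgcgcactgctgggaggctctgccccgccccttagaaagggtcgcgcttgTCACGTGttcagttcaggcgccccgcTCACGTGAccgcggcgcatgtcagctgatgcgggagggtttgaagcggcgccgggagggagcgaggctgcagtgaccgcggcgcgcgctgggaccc
Lamp1: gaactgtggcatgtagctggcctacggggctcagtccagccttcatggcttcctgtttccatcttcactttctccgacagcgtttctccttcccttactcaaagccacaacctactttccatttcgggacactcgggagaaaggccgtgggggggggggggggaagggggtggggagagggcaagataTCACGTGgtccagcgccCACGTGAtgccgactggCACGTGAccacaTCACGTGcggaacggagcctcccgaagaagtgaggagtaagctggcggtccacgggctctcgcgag
Naglu: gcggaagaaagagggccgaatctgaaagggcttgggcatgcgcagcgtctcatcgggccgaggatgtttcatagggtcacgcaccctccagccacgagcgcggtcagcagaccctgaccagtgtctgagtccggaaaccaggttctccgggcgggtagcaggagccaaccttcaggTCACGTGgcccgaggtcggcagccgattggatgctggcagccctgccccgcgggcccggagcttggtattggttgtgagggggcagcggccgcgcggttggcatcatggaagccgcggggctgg
Mcoln1 holds a full match and a shorter one, Lamp1 several shorter ones and Naglu a single shorter one. A match is a description of these letters and not a site that was tested.

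The early secretory pathway, where lysosomal and other exported proteins are made, leaned the same way with smaller values. Of 47 genes of translocation into the endoplasmic reticulum and of signal peptide processing 33 were negative, with a median of -0.02, or -0.04 with the trend removed. There were 4 negative members at an unadjusted p under 0.05 (8.51%, against 3.98% of all genes) and 0 positive ones. Sec62, a subunit of the translocon, stood at -0.33 with a standard error of 0.114 in the authors' deposited table. Ddost and Rpn1, subunits of the oligosaccharyltransferase, stood at -0.23 and -0.22, and Caml, which helps to insert tail-anchored proteins, at -0.28 in the authors' deposited table. Of 35 genes of the unfolded protein response and of folding in the endoplasmic reticulum 22 were negative, with a median of -0.04. Os9, a lectin of endoplasmic reticulum degradation, stood at -0.35, the disulfide isomerase gene Pdia3 at -0.26 and the co-chaperone gene Dnajb11 at -0.26 in the authors' deposited table. The luminal chaperone gene Hspa5 went the other way, at 0.23 with an unadjusted p of 0.0408 in the authors' deposited table, and was chosen after its value was seen. In the other line this list had a median of 0.03 with 20 of 35 positive.

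A hydrophobic N-terminus, scored from the sequence as a run of 12 residues with a mean Kyte-Doolittle hydropathy of at least 2 within the first 35, marks many proteins that enter the endoplasmic reticulum. Among genes with an average expression of at least 3, the 947 with such a run had a median log2 fold change of -0.04 and 38.0% were positive, whereas the 7686 without it had a median of 0.01 and 52.4% positive. At an unadjusted p under 0.05, 6.55% of the former were negative and 1.27% positive, against 2.38% and 2.58% of the latter. With the lysosomal list left out, 920 genes with the run remained, with a median of -0.03 and 38.6% positive. Of the list of collagens, laminins and basement membrane genes, chosen after its values were seen, 83.7% had the run at any expression. Of its 43 genes 19 were positive, with a median of -0.03, or 0.00 over the 19 with an average expression of at least 3. At an unadjusted p under 0.05 it had 2 positive and 2 negative members, 4.65% each, against 2.72% and 3.98% of all genes. In the shortest tertile of transcripts the medians with and without the run were -0.07 and -0.01, in the middle tertile -0.05 and -0.00 and in the longest 0.01 and 0.04. In the Rps26Tir1 line the medians were -0.04 with the run and 0.01 without it. The quartiles of the groups overlap in each tertile, and the scores describe sequences, not measured localisation.

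**Figure D5:**
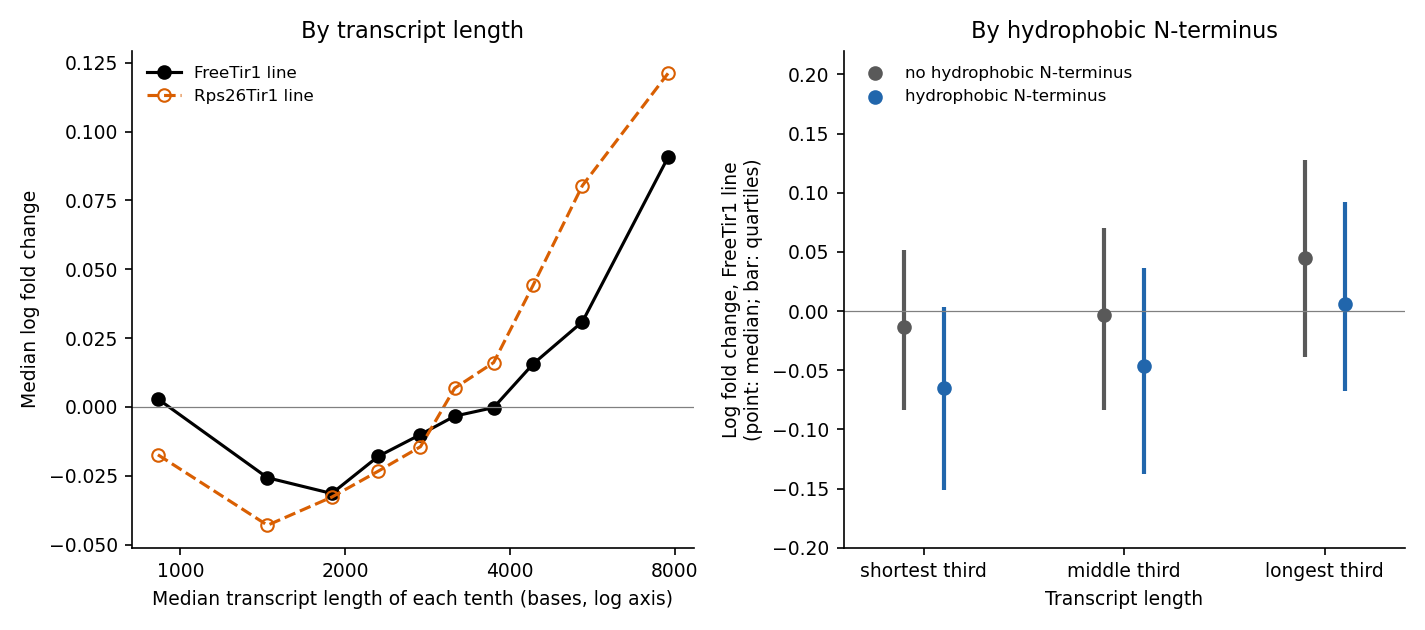
Left, median log fold change by decile of transcript length (log axis) in the FreeTir1 line (filled) and the Rps26Tir1 line (open), for 8633 genes with an average expression of at least 3. Right, FreeTir1 medians and quartiles by tertile of transcript length for genes with and without a hydrophobic N-terminus. The longest decile stands highest, and the median with the run lies below that without it in each tertile.

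Long transcripts leaned positive. Among genes with an average expression of at least 3, 74.5% of the longest decile (median 7777.5 bases) were positive, with 9.03% positive and 0.579% negative at an unadjusted p under 0.05. In the second decile from the short end (median 1442 bases) 38.7% were positive, with 0.579% positive and 3.94% negative at that p. The shortest decile, with a median of 909.5 bases, did not continue this order and had 51.3% positive. The 210 leading positive genes had a median transcript length of 5003.5 bases and the 245 leading negative genes 2627 bases, against 2951 bases over the 8633 genes. Of the positive genes 37.1% fell in the longest decile of transcripts and of the negative genes 2.04%. Spearman's rho across the 8633 genes was 0.211 with transcript length, 0.180 with coding length, 0.0974 with the length of the leader and 0.0662 with that of the 3' UTR. It was -0.0180 with GC content. These are descriptions across genes, which share libraries and are not independent replicates. Transcript length and coding length go together, and their parts in the leaning were not tested.

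Of the 8 classes highest in share of positive members, the histone methylation and Argonaute lists held long transcripts, whereas chaperonin and prefoldin genes (median 1853 bases) and initiation factors (2009 bases) were shorter than the median of 2881.5 bases over all genes. Of 53 histone lysine methyltransferase and demethylase genes, whose median transcript length was 5935 bases, 41 were positive, with a median of 0.11. At an unadjusted p under 0.05 there were 5 positive members (9.43%) and 0 negative ones, where 2.72% of all genes and 9.03% of the longest decile were positive. Setd1b, a histone methyltransferase gene of the COMPASS family, stood at 0.46 with a standard error of 0.157, and the histone demethylase gene Kdm5b at 0.27 in the authors' deposited table. Prdm14, a repressor that helps to hold naive pluripotency, stood at 0.34, and Setd2, a methyltransferase that acts along transcribed genes, at 0.28 in the authors' deposited table. Once the trend in transcript length, GC content and expression together was taken out of the fold changes, this list had a median of 0.03.

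Argonaute, TNRC6 and microRNA processing genes leaned the same way, with a median transcript length of 6537 bases. Positive values were found for 13 of 17 members; the median was 0.14, or 0.06 with the trend removed. Ago3, which encodes an Argonaute protein, stood at 0.55 by the authors' deposited table at an average expression of 2.24, and Tnrc6b, a partner that recruits deadenylases, at 0.33. Lin28b, which blocks let-7 maturation, stood at 0.37, and Trim71, itself a let-7 target, at 0.25 in the authors' deposited table. These were the 4 members at an unadjusted p under 0.05 (23.5%), where 2.72% of all genes and 9.03% of the longest decile were positive. In contrast Drosha, Ago2 and Xpo5 lay between -0.01 and 0.01 in the authors' deposited table; they were chosen after their values were seen. The Rps26Tir1 line had 12 of 17 positive (median 0.08).

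Of 17 formative and primed pluripotency genes, which mark the step from the naive state towards the epiblast, 15 were positive with a median of 0.15, and 0.13 with the trend removed. Sox11, a SOX family factor, stood at 0.36 with a standard error of 0.147 in the authors' deposited table and was the only member at an unadjusted p under 0.05. Foxd3, a forkhead factor, and Dnmt3l, a cofactor of the de novo DNA methyltransferases, stood at 0.27 and 0.24, while the POU factor gene Pou3f1 stood at -0.28 in the authors' deposited table. Otx2, Dnmt3a and Dnmt3b, further genes of this state, lay between 0.15 and 0.17 in the authors' deposited table with standard errors of 0.120 to 0.132, and were chosen after their values were seen. So were Lef1, Sall2, Fgf5 and Etv4, which lay between -0.02 and 0.03 in the authors' deposited table. Foxd3, Dnmt3l, Dnmt3a and Dnmt3b were negative in the Rps26Tir1 line (-0.20, -0.03, -0.04 and -0.01), where Sox11 and Otx2 were positive (0.04 and 0.34). The Rps26Tir1 line had 10 of 17 positive (median 0.07). Of 36 pluripotency genes 23 were positive with a median of 0.04. Dppa3, a maternal factor, stood at 0.46 at an average expression of 1.40, and Nr5a2, a nuclear receptor of the pluripotency network, at 0.23 by the authors' deposited table. The core factors Pou5f1, Sox2 and Nanog stood at -0.03, 0.06 and 0.04 with standard errors of 0.0867 to 0.123 in the authors' deposited table.

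The mesendoderm and neural lists were low in share of positive members but rested on weakly expressed genes. Of 10 mesendoderm markers 2 were positive, with a median of -0.17, a median standard error of 0.524 and a median average expression of 0.25. This median was -0.03 over the 3 members with an average expression of at least 3 and -0.11 with the trend removed. Lefty2, an antagonist of Nodal, was the best measured of those named, at -0.16 with a standard error of 0.105 in the authors' deposited table. Tbx6, Mixl1 and Sox17, transcription factors of these lineages, stood at 0.92, -0.57 and -0.57 with standard errors of 0.502 to 0.557 in the authors' deposited table. Of 9 neural markers 3 were positive with a median of -0.20. Zic1 stood at -4.09 with a standard error of 1.67 in the authors' deposited table, at an average expression of -2.05, and Map2 at -0.26 with a standard error of 0.243. Sox21 and Sox1, neural SOX factors, stood at 0.29 and 0.22 by the authors' deposited table. The neural median turned to 0.14 over the 2 members with an average expression of at least 3, and in the other line it was 0.17 with 7 of 9 positive. Primitive endoderm markers had 10 of 19 positive and a median of 0.00.

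Both lists of protein degradation genes had more negative than positive members. Of 49 proteasome subunits 34 were negative, with a median of -0.06, or -0.04 with the trend removed. The 2 negative members at an unadjusted p under 0.05 were 4.08% of the list, close to the 3.98% of all genes, and 0 were positive at that p. Psmd11 and Adrm1, both of the regulatory particle, stood at -0.29 and -0.25 with standard errors of 0.104 and 0.116 in the authors' deposited table. The core subunit gene Psmb2 stood at -0.17 and the assembly factor gene Pomp at 0.17 in the authors' deposited table. In the Rps26Tir1 line 37 of the 49 were negative, with a median of -0.10. Of 86 SCF, cullin and F-box genes, the ligase family that TIR1 itself docks on, 55 were negative with a median of -0.05. Here Fbxo30 at 0.38 and Cand2, a cullin regulator, at 0.45 stood opposite Cops4, a subunit of the COP9 signalosome that acts on cullins, at -0.25 in the authors' deposited table. Fbxw10 stood at -0.92 at an average expression of -0.02 in the authors' deposited table. At an unadjusted p under 0.05 this class had 2 positive and 2 negative members, 2.33% each.

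Mitochondrial and chaperone classes lay close to 0. Of 23 genes of the tricarboxylic acid cycle and pyruvate dehydrogenase 15 were negative with a median of -0.05, and 0 had an unadjusted p under 0.05. Pdhb and Idh2 stood at -0.18 and -0.15, Pcx and Pdha1 at 0.21 and 0.15 in the authors' deposited table. In the other line 21 of the 23 were negative, with a median of -0.13. Of 13 chaperonin and prefoldin genes 11 were positive, with a median of 0.03. Pfdn6 stood at 0.28 with a standard error of 0.143 and Cct3 at 0.17 in the authors' deposited table, Pfdn2 and Tcp1 at 0.10 each. In the other line 5 of the 13 were positive.

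The translation machinery itself leaned only slightly. Of 43 initiation factor genes 30 were positive with a median of 0.04. In all 2 positive members had an unadjusted p under 0.05 (4.65%, against 2.72% of all genes) and 0 negative ones. Eif4b, which stimulates the initiation helicase, stood at 0.38 (standard error 0.121, adjusted p = 0.415) by the authors' deposited table, and Eif1b and Eif1a, of the start codon scanning factors, at 0.23 and 0.20. Eif5a2 stood at 0.21 in the authors' deposited table. Of 15 elongation and release factor genes 10 were positive with a median of 0.02, led by Eef2k, the elongation factor kinase gene, at 0.34 and its substrate Eef2 at 0.22 in the authors' deposited table. Eef1g stood at 0.16 and Eef1e1, a member of this list that is not itself an elongation factor, at 0.11 in the authors' deposited table.

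Cytosolic ribosomal protein genes lay close to 0. Of 35 small-subunit genes 15 were positive with a median of -0.02 and quartiles of -0.10 and 0.07. Rps12 stood at 0.31 with a standard error of 0.108 in the authors' deposited table and was the only member at an unadjusted p under 0.05, with Rps2 and Rps20 at 0.19 and 0.16 and Rps3a1 at -0.18. The median was 0.03 with the trend removed and 0.02 without members that share over 50% of their stretches, so this list has no stable direction. Of 50 large-subunit genes 19 were positive with a median of -0.02, and 0 had an unadjusted p under 0.05. Rpl12 stood at 0.23, Rpl23a at -0.19, Rpl35 at -0.13 and Rpl28 at -0.13 in the authors' deposited table. Medians in the other line were -0.02 for each subunit.

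The lists of deadenylation genes and of nonsense-mediated decay factors had more positive than negative members, with medians close to 0. Of 20 CCR4-NOT and deadenylation genes 14 were positive with a median of 0.02. The scaffold gene Cnot1 and the deadenylase gene Cnot6l stood at 0.21 and 0.25, whereas Cnot11 and the antiproliferative adaptor gene Tob1 stood at -0.35 and -0.26 in the authors' deposited table. Each of the 4 had an unadjusted p under 0.05, so that 10% of the list stood on either side, against 2.72% positive and 3.98% negative over all genes. Of 19 nonsense-mediated decay factors 13 were positive with a median of 0.05. Smg8, a regulator of the kinase SMG1, stood at 0.33, the endonuclease gene Smg6 at 0.20, Smg1 at 0.18 and Magohb, of the exon junction complex, at -0.20 in the authors' deposited table.

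Genes of DNA replication and p53 targets were the cell cycle classes described. Of 52 replication licensing and fork genes 36 were positive with a median of 0.06. Members at an unadjusted p under 0.05 were 5 positive (9.62%, against 2.72% of all genes) and 2 negative (3.85%, against 3.98%). The licensing factor gene Cdc6 stood at 0.29, the DNA polymerase alpha subunit gene Pola2 at 0.26, the helicase subunit gene Mcm4 at 0.24 and the ribonucleotide reductase gene Rrm1 at 0.22 in the authors' deposited table, with standard errors of 0.0950 to 0.116. Their counts in the other line were 30 of 52 positive, median 0.04. Of 37 p53 targets 21 were positive with a median of 0.02, and 0 had an unadjusted p under 0.05. Plk3 and Ddb2 stood at -0.26 and -0.36, Ercc5 at -0.21 in the authors' deposited table. Ano3 stood at -0.60 with a standard error of 0.393 in the authors' deposited table. The Rps26Tir1 line had 29 of 37 positive (median 0.16), and the difference between the lines had an unadjusted p under 0.05 for 6 members and passed after adjustment for 0.

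A few further classes, chosen after their values were seen, are given by their counts. Solute carriers, the largest list of membrane transporters, had 151 of 243 members negative and a median of -0.05, with 17 negative (6.996%) and 2 positive members at an unadjusted p under 0.05. Their median average expression was 3.38, and at that p 5.63% of all genes with an average expression of 1 to 3 and 3.20% of those from 3 to 5 were negative. Their median in the other line was 0.01. V-ATPase genes had 8 of 19 positive with a median of -0.07, and 0 at an unadjusted p under 0.05. Chromatin remodellers of the SWI/SNF, ARID and CHD families had 35 of 54 positive with a median of 0.10, which was 0.02 with the trend removed. Zfp zinc finger genes had 202 of 362 positive with a median of 0.02, and the other line had 239 positive with a median of 0.12. Nuclear-encoded oxidative phosphorylation genes had 46 of 79 positive with a median of 0.03, and 0 at an unadjusted p under 0.05. Targets of the integrated stress response had 14 of 33 positive with a median of -0.02, and the 6 measured genes of the aryl hydrocarbon receptor pathway, which senses indoles among other ligands, had a single positive member and a median of -0.05.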

How the data were processed

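Log fold change, average expression, p-value and adjusted p-value of IAA against DMSO were analysed for 13504 genes of the FreeTir1 line (12 libraries, 2 per group). Fold changes and average expression are log values, read as log2, per the file headers. The deposited p-values, raw and adjusted, exist for each line. The smallest correspond to 15864 genes tested by the authors. Not given in the sources used here: aligner, counting, normalization, model and build. Per the labels' protocols, Trizol RNA went into paired-end TruSeq libraries. Libraries were grouped by line, treatment and fraction; no counts were used, so depth is unknown.

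Standard errors were worked back from the p-values; 29 degrees of freedom, searched from 8 to 60, made the ratio of both lines' errors vary least between genes. The difference between lines (2-sided, Benjamini-Hochberg over 13504 genes) takes their errors as independent. It was tested on simulated data. Transcript lengths, GC content, hydropathy and 31-base stretches came from GENCODE M21 (GRCm38), matched by identifier for all 13504 genes, which may differ from the authors' annotation. Python 3.11.15, scipy 1.17.1 and statsmodels 0.14.6 were used.

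Members and lists were chosen with earlier results of these data known. Named by rule were Rack1 and Rps26, the 12 genes per sign of smallest p and the 6 per sign of largest fold change (p under 0.05) at an average expression of at least 3, up to 4 members per class of smallest p, and the gene of smallest adjusted p. Gene models without a name (337) entered counts only, and values of a few other genes are not reported here. Described classes were the 8 highest and 8 lowest in share of positive members, with ribosomal protein, translation factor, pluripotency and p53 lists. Rps26 stood at -0.16 in the authors' deposited table. Alternatives covered adjustment, thresholds, expression filters, centring, the trend, means and shared sequence.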

Additional observations from a re-analysis of the deposited data

Results flagged for a closer look

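Rnaset2b, a ribonuclease gene on chromosome 17, was the single gene whose fold change differed between the lines at adjusted p under 0.05, by the test of the difference itself. By the authors' deposited table its log fold change was 0.41 for FreeTir1 (worked-back standard error 0.255) against -1.95 for Rps26Tir1. Subtracting the FreeTir1 value gave -2.36, standard error 0.410. Its average expression was 2.06 in the authors' deposited table, and 91.6% of its 31-base stretches also occur in transcripts of other genes; the part of either in the difference was not tested.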

How the results depend on the processing

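No gene passed adjusted p of 0.05 as deposited, nor when adjustment was redone over the genes in the table, over those with average expression of at least 3 or over those of at least 1, with smallest adjusted p of 0.0662, 0.453 and 0.235. Thresholds of 0.1 and 0.2 gave 2 and 7 genes. The 367 positive and 537 negative genes at an unadjusted p under 0.05 became 210 and 245 at an average expression of at least 3, where fewer genes were tested, and 90 and 147 at p under 0.01. Over 21 classes, 101 of 105 recomputed medians kept their sign. The exceptions were neural markers at an average expression of at least 3 (0.14), small-subunit ribosomal proteins with the trend removed (0.03) or without shared sequence (0.02), and p53 targets by the mean (-0.03). The cause was not tested. The count of kept signs is a weak check, since centring took off a median of only -0.004 and some filters removed no member of a list. Sizes moved more: the histone methylation median fell from 0.11 to 0.03 with the trend removed. The mesendoderm median went from -0.17 to -0.03 at an average expression of at least 3. Spearman's rho with length was 0.153 over all genes. Of 371 genes that the naming rule covers over all classes, 0 differed between the lines with 29 or 20 degrees of freedom and 1, Zfp456, with 60. No paired analysis was possible because no values per library were used, and leaving out each replicate was not run for that reason. Depth per gene is unknown; standard errors, with a median of 0.116 at an average expression of at least 3 and 0.462 below 0, set the precision.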

Other observations

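Of 94 gene families set by the letters of their symbols, with at least 15 measured members each, the lowest medians belonged to Cd (-0.14 over 41 genes, 29 negative), Il, Pla, Lrrc and St. The letters alone set these families, so that Cd also holds intracellular proteins such as Cd2ap, and Usp a GTPase-activating protein, Usp6nl. Among the Cd genes, Cd34 stood at -0.43 and Cd9 at -0.26 in the authors' deposited table, each with an unadjusted p under 0.05 and chosen after its value was seen, and the family's median average expression was 1.36. The Il family had a median of -0.10 over 28 genes, Pla -0.10 over 16, Lrrc -0.08 over 34 and St -0.07 over 20. The highest medians belonged to Kdm (0.12 over 17, 15 positive), Vmn, Usp, Ints and Timm. Of the Usp genes, most of them ubiquitin proteases, 38 of 53 were positive (median 0.09), and Usp29, chosen after its value was seen, stood at 0.99 (standard error 0.261) at an average expression of 0.91 in the authors' deposited table. Vmn receptors had a median of 0.10 over 31 genes at a median average expression of -0.76. Ints genes, of the Integrator complex, had 11 of 15 positive and Timm genes, of mitochondrial import, 12 of 15.

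By chromosome, medians at an average expression of at least 3 ran from -0.01 on chromosome 14 to 0.01 on chromosome 16.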
